A study of Nicotiana benthamiana with 12 samples.

Results

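The 200 genes that took the most sequencing counts were examined in whole seedlings of Nicotiana benthamiana, a wild tobacco species of plant laboratories. They were chosen by CPM (the count of a gene divided by the total of its library, times 1000000), as the 200 genes of 45796 with the highest mean CPM over all 12 libraries. The choice used the level alone, so their levels are given as a description and comparisons between groups were tested. In the text these genes are called members, and their rank is that of the mean CPM.

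The plants were of the LAB strain, either wild type (WT) or a line named pent1, for which the labels do not name the altered gene. Seedlings were 10 days old when moved from plates to liquid medium and stayed there for 10 days. They then received fresh medium with 10 µM abscisic acid (ABA) or, as mock, 0.1% of the solvent DMSO, and were harvested 3 h later. Each of the 4 groups (WT mock, WT ABA, pent1 mock and pent1 ABA) had 3 libraries, which the submitters describe as independent biological replicates.

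ABA is the plant hormone of drought, seed dormancy and stomatal closure. It binds receptors that block a class of protein phosphatases, which frees kinases that activate transcription factors, and many genes change within hours. In a leafy seedling a limited set of genes for photosynthesis, protein synthesis and other basic functions usually takes a large part of the sequencing counts. Changes in that set shift the share of counts left for all other genes. In the libraries used here, 1569 to 2153 genes were needed to hold 50% of the counts.

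No table used here pairs the gene IDs with names or products, so no member has a known role here and the tissue label was not checked against marker genes. CPM are not corrected for transcript length. A high rank therefore means many counts, not necessarily many molecules, and levels are compared between libraries within a gene. In bulk RNA, fewer cells of a type and less RNA per cell cannot be told apart. The genome is allotetraploid, so a member may share reads with a near-identical copy.

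Libraries held 18199288 to 19678708 counts. Members had at least 2553 counts in each library, and their counting error alone corresponded to a median coefficient of variation (CV, SD over mean) of 0.766% to 0.811% by group. The spread between replicates was wider. The members' median CV was 4.58% (WT mock) and 5.86% (WT ABA) in the wild type, and 10.3% (mock) and 9.56% (ABA) in pent1 (n = 3 each). A CV over 20% was found in 4, 0, 9 and 15 members of these groups, in the same order.

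The gene with the most counts, NbL16g13890, was ranked first in all 4 groups. It stood at 14157, 17125 and 16683 CPM in WT mock, at 14554, 14241 and 16624 in WT ABA, at 13311, 16873 and 15344 in pent1 mock, and at 14801, 15952 and 18455 in pent1 ABA. These ranges overlapped between all groups, and it was called in none of the comparisons. It took 1.33% to 1.85% of the counts of a library.

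The gene ranked next, NbL14g09600, differed by genotype. It stood at 3962, 4609 and 4308 CPM in WT mock and at 4389.8, 4207 and 4668 in WT ABA. In pent1 it stood at 5527, 6936 and 7563 CPM in mock and at 5662, 5727 and 7172 in ABA. Each pent1 library was above each WT library, and the pent1 against WT log2 fold change was 0.60 under mock (SE 0.15, edgeR quasi-likelihood test, adjusted p = 0.00569) and 0.51 under ABA (SE 0.15, adjusted p = 0.0163).

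The third gene, NbL06g07160, was lower in pent1 mock, at 3250.5, 4039.9 and 3378 CPM against 4967, 5020.0 and 5042 in WT mock (log2 fold change -0.54, SE 0.13, edgeR quasi-likelihood test, adjusted p = 0.00457). Under ABA it stood at 4448, 4237 and 4771 CPM in WT and at 3849, 3668 and 4451 in pent1, which overlap and were not called. The next 2 genes, NbL04g17080 and NbL07g07900, lay between 3226 and 4660.0 CPM in all 12 libraries and were called in no comparison.

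Most members stayed among the highest genes in every group. Of the 200, 166 were among the 200 highest genes by group mean in each of the 4 groups, and 6 were among the 10 highest in each. A further 7 were in the front 200 of both WT groups only and 9 of both pent1 groups only. The 200 highest genes of WT mock shared 184 with those of WT ABA and 175 with those of pent1 mock. Pent1 mock and pent1 ABA shared 186.

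At the boundary, NbL19g22860 (last but one, mean 449 CPM) and NbL06g12380 (rank 200, 448 CPM) were just inside, and NbL12g21160 (445 CPM) and NbL02g09170 (445 CPM) just outside. NbL06g12380 ranged from 132 to 885 CPM over the 12 libraries. In its 3 pent1 ABA libraries it stood at 514, 259.9 and 132 CPM, the widest spread of any member within a group (CV 64.5%).

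Together the members took between 21.3% and 26.3% of the counts of a library. Their share was 24.6%, 25.6% and 25.1% in the WT mock libraries and 23.4%, 23.3% and 25.5% in WT ABA. It was 21.3%, 24.8% and 24.4% in pent1 mock and 23.8%, 23.5% and 26.3% in pent1 ABA. One library in each of the last 3 groups lay apart from its partners, namely WT ABA replicate 3, pent1 mock replicate 1 and pent1 ABA replicate 3.

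In WT the group means were 25.1% ± 0.493 under mock and 24.1% ± 1.24 under ABA, and in pent1 they were 23.5% ± 1.94 under mock and 24.5% ± 1.53 under ABA (SD, n = 3). The mean share was 1.03 percentage points lower with ABA in WT and 0.987 points higher with ABA in pent1. All 4 pairs of groups compared overlapped in their libraries, so with all libraries no difference in the total share exceeded the spread between replicates. Without the 3 libraries that lay apart, the share was lower with ABA in both genotypes, by 1.74 points in WT and 1.005 in pent1. The direction turned in pent1, and mock and ABA did not overlap in either genotype. Those libraries were picked by this same share after it was seen, and leaving them out lowers both ABA groups and raises pent1 mock. The turn and the lack of overlap follow in part from that choice and are only a description. The 95% Wilson interval of a library's share reached at most 0.0200 percentage points to either side, for counting error only.

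**Figure D1:**
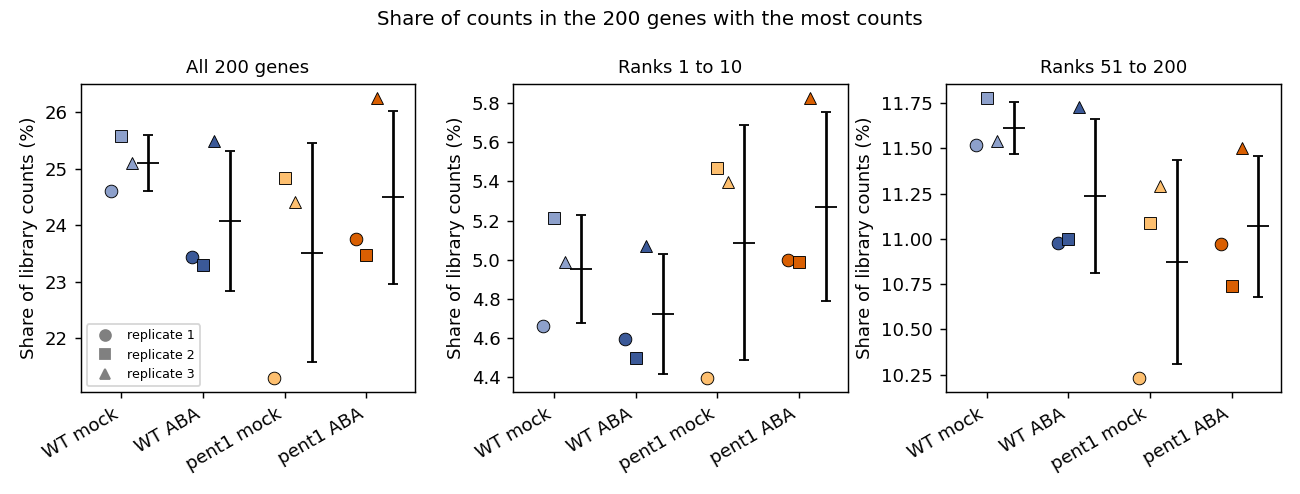
Share of library counts (%, vertical axis, not starting at 0) taken by all 200 members, by ranks 1 to 10 and by ranks 51 to 200, for each library (symbols, by replicate number) with the group mean and SD (bars). WT ABA replicate 3 (25.5%), pent1 mock replicate 1 (21.3%) and pent1 ABA replicate 3 (26.3%) lay apart from the other 2 libraries of their group in all 3 panels.

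The shift of those 3 libraries ran through most members at once. WT ABA replicate 3 was the highest of its group for 158 of 200 members (79.0%), against 26.1% of all genes tested. Pent1 ABA replicate 3 was the highest for 140 members (70.0%, against 32.8% of all genes), and pent1 mock replicate 1 the lowest for 144 members (72.0%, against 16.8%). Without these libraries the shares were 23.3% to 23.4% in WT ABA, 24.4% to 24.8% in pent1 mock and 23.5% to 23.8% in pent1 ABA, with 24.6% to 25.6% in WT mock. The main counts of calls are given below with and without them, and the other values with all libraries unless stated. As they were picked by the members' share, leaving all 3 out moves the members' values with ABA downward by choice.

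Which of these genes the hormone changed within 3 h was first asked in WT. ABA raised 16 members and lowered 18, and 166 were not called. Among all 33170 genes tested, 18.6% were called higher and 17.5% lower, against 8% and 9% of members (edgeR quasi-likelihood test, p adjusted after Benjamini and Hochberg, under 0.05). The changes were small, with median log2 fold changes of 0.30 among members called higher and -0.30 among those called lower. No member was called with a change of at least 2-fold in either direction, whereas 4.95% of all genes rose and 2.25% fell by that much. The largest changes among members were 0.66 and -0.83 on the log2 scale, and DESeq2 and limma-voom also gave no member at 2-fold.

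Upper-quartile factors gave 13 higher and 37 lower, and over all genes 15.4% higher and 24.2% lower. The low number of calls rested on WT ABA replicate 3. Without it, 17 members were called higher and 62 lower, 39.5% of members against 33.6% of all genes. The absence of 2-fold changes held in each fit with 1 library left out. The median log2 fold change of all 200 members was -0.05 (-0.02 for all genes), and -0.10 without that library. The median standard error of the members was 0.08, below the 0.11 of all genes.

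Calls were rarest at the very front of the list. With all libraries, 1 of the 50 highest members was called in WT (2 at an unadjusted p under 0.05), and 33 of the other 150. Of the 200 genes that rank just after the members, 41.5% were called. Without WT ABA replicate 3, 18 of the 50 highest members were called, 1 higher and 17 lower, and 47% of those next 200 genes.

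**Figure D2:**
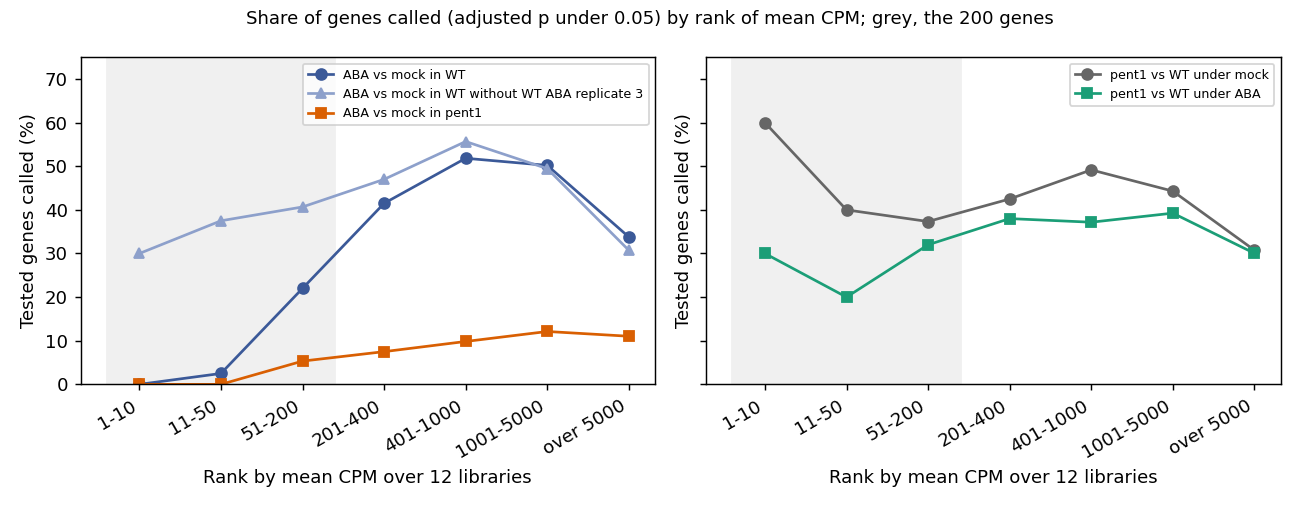
Percentage of tested genes called (adjusted p under 0.05, vertical axis) by rank of mean CPM (horizontal axis, 7 bands), for ABA against mock (left) and pent1 against WT (right); the grey area marks the 200 members. The steep fall toward the highest ranks in WT (22.0% at ranks 51 to 200, 0% at ranks 1 to 10) was smaller without WT ABA replicate 3 (40.7% and 30%).

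The member with the largest rise in WT was NbL09g15690 (rank 189). It stood at 457, 484 and 438 CPM in WT mock and at 696, 727 and 743 in WT ABA, with no overlap. Its log2 fold change was 0.66 (SE 0.07, edgeR quasi-likelihood test, adjusted p = 4.97e-07).

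NbL15g14860 (rank 178) followed, at 281, 303 and 298 CPM in WT mock and 443, 428 and 443 in WT ABA (log2 fold change 0.59, SE 0.07, edgeR quasi-likelihood test, adjusted p = 9.37e-07). All its ABA libraries were above its mock libraries in WT. In pent1 it was already higher without ABA, at 586, 611 and 759 CPM in mock, and stood at 602, 606 and 661 in ABA, where the groups overlapped (log2 fold change 0.01, adjusted p = 0.969). By group mean it ranked 349 and 213 in WT mock and ABA and 136 and 137 in pent1. It thus entered the list through pent1, which favours a higher level there.

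The largest decreases in WT were those of NbL01g24330 (rank 168) and NbL07g10140 (rank 154). NbL01g24330 stood at 919.6, 936 and 826 CPM in WT mock and at 487, 524 and 487 in WT ABA (log2 fold change -0.83, SE 0.08, edgeR quasi-likelihood test, adjusted p = 2.83e-08). NbL07g10140 stood at 499, 537 and 547 CPM in mock and 298, 259.9 and 332 in ABA (log2 fold change -0.82, SE 0.09, adjusted p = 7.47e-07). Mock and ABA libraries did not overlap for either gene.

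The same comparison in pent1 found 6 members higher, 2 lower and 192 not called. This was 3.00% and 1.00% of members, against 7.24% and 3.84% of the 33197 genes tested (edgeR quasi-likelihood). One member was at least 2-fold higher and none at least 2-fold lower, against 3.05% and 1.14% of all genes. The number of calls in the genotypes depended on the fit. With all 12 libraries in 1 fit, 15 members were called in WT (7.5%, against 24.5% of all genes) and 15 in pent1 (7.5%, against 18.2%), and DESeq2 called 14 in pent1 (7%, against 10.9%). None of the 50 highest members was called by edgeR (1 at an unadjusted p under 0.05), 1 was called by DESeq2 and none by limma-voom.

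The median log2 fold change of the members with ABA in pent1 was 0.12, against -0.01 for all genes. It was 0.03 without pent1 mock replicate 1 and turned to -0.05 with all 3 libraries that lay apart left out. That fit called 10 members higher and 6 lower, 5% and 3% of members against 7.41% and 5.37% of all genes. Both decreases called with all libraries were lost when any one of pent1 mock replicates 2 and 3 and pent1 ABA replicates 1 and 2 was left out.

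NbL09g15690 was the highest in pent1 as well, and the member at 2-fold. It stood at 221, 252 and 213 CPM in pent1 mock and at 504, 511 and 419 in pent1 ABA (log2 fold change 1.14, SE 0.14, edgeR quasi-likelihood test, adjusted p = 0.000135). Each ABA library was above each mock library, and the pent1 mock libraries were below those of WT mock.

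NbL11g14440 (rank 186) stood at 321, 385 and 269 CPM in pent1 mock and at 676, 556 and 449 in pent1 ABA (log2 fold change 0.87, SE 0.18, edgeR quasi-likelihood test, adjusted p = 0.00597). In WT it rose from 444, 498 and 451 CPM to 553, 582 and 541 (log2 fold change 0.28, SE 0.07, adjusted p = 0.00505). The mock and ABA libraries did not overlap in either genotype, and the WT libraries were closer together.

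The 2 members called lower in pent1 were NbL07g10140 and NbL15g24670 (rank 188). NbL07g10140 stood at 838, 877 and 1033 CPM in mock and 561, 526 and 658 in ABA (log2 fold change -0.57, SE 0.16, edgeR quasi-likelihood test, adjusted p = 0.0378, 0.0910 to 0.192 without any one of the 4 libraries named above). NbL15g24670 stood at 340.4, 335 and 383 CPM in mock and 244, 222 and 255 in ABA (log2 fold change -0.47, SE 0.14, adjusted p = 0.0449, 0.0968 to 0.213 without them). Neither overlapped between mock and ABA. In WT, NbL15g24670 fell from 765, 712 and 779 CPM to 543, 532 and 586 (log2 fold change -0.43, SE 0.08, adjusted p = 0.000134).

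Of the 8 members called in pent1, 7 were called in WT in the same direction, 5 higher and 2 lower, and no member had opposite calls. The matching overlap over all genes tested was not counted. The 5 shared increases ranged from 0.28 to 0.66 on the log2 scale in WT and from 0.49 to 1.14 in pent1, and the highest of them by counts had rank 78. Across all 200 members the fold changes in WT and pent1 were related with r = 0.365 (Pearson) and rho = 0.104 (Spearman), and 78 had the same sign. These correlations describe 200 genes that share 12 libraries, and the signs in pent1 depend on the scaling and on the libraries that lay apart.

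**Figure D3:**
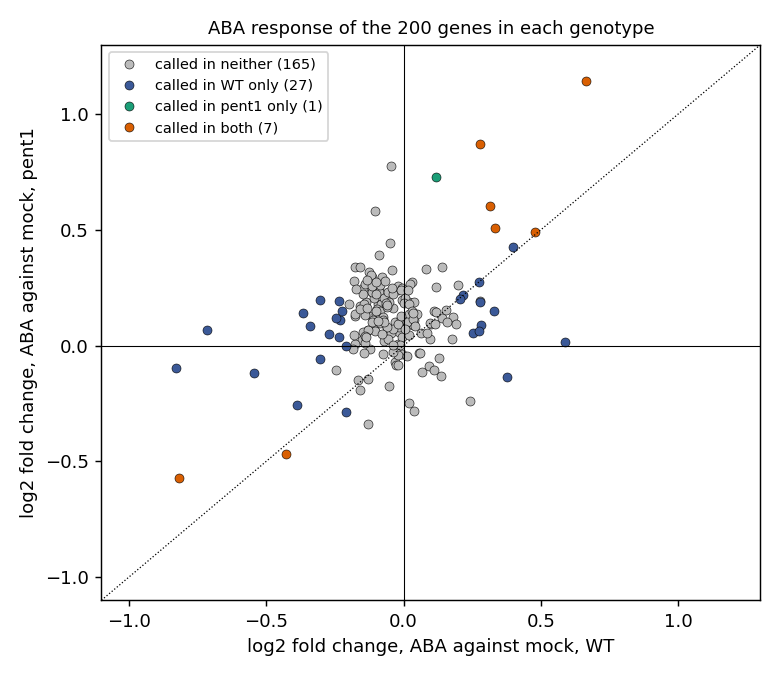
Log2 fold change of ABA against mock in WT (horizontal axis) and in pent1 (vertical axis) for the 200 members, coloured by where they were called, with the line of equal change dotted. The 7 members called in both genotypes lie in the quadrants of equal sign, and most of the 165 called in neither lie within 0.5 of 0 on each axis.

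The 16 members called higher in WT took 1.06%, 1.10% and 1.08% of counts in the mock libraries of WT and 1.32%, 1.35% and 1.38% in its ABA libraries. These values come from the libraries that chose the genes. In pent1, which did not choose them, they took 1.08%, 1.117% and 1.20% in mock and 1.23%, 1.25% and 1.35% in ABA, without overlap. In pent1, 15 of the 16 had a positive log2 fold change, with a median of 0.21 against 0.30 in WT. Of the 166 members not called in WT, 139 were also positive in pent1, with a median of 0.12.

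The 18 members called lower in WT took 1.44% ± 0.0353 of its counts under mock and 1.11% ± 0.0108 under ABA (SD, n = 3). In pent1 mock they took 1.03%, 1.03% and 0.987%, each below the WT ABA libraries. In pent1 ABA they took 0.976%, 0.973% and 0.878%, lower than in pent1 mock without overlap. Of these 18 members, 7 had a negative log2 fold change with ABA in pent1, and the median of the 18 there was 0.04 against -0.30 in WT. The other 11 (61.1%) were positive, against 83.7% of the 166 members not called in WT, whose median in pent1 was 0.12. Here and for the 16 members above, fold changes rest on TMM factors and shares on library totals. By group mean CPM, 126 of the 200 members rose with ABA in pent1, whereas 165 had a positive log2 fold change. The median of all members there turned to -0.05 without the 3 libraries that lay apart, so these sign counts depend on scaling and on those libraries.

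A different response to ABA in pent1 and WT was called for 2 members with a positive value (pent1 minus WT) and for none with a negative one, 1.00% and 0% of members against 1.2% and 2.17% of the 34026 genes tested. At an unadjusted p under 0.05 there were 25 positive and 1 negative (edgeR quasi-likelihood). That count was not made over all genes, so it cannot be called particular to the members. Limma-voom called 2 and 0 (1% of members against 3.00% of all genes), and library-size scaling 2 and 1 (1.5% of members against 4.13% of all genes). DESeq2 called 8 positive and 1 negative, 4% and 0.5% of members against 2.399% and 4.63% of all genes. The median log2 difference of the members was 0.18, against 0.00 for all genes, and 0.05 without pent1 mock replicate 1. The number of members called moved between 0 and 15 as single libraries were left out, and was 0 without WT mock replicate 1 or 2, without any one WT ABA library, or without pent1 ABA replicate 2, and 15 without pent1 ABA replicate 3. The share of all genes called moved too, from 1.03% to 1.501% in the fits with 0 members to 15.5% in the fit with 15 (7.5% of members). Without the 3 libraries that lay apart, 16 members were positive and 2 negative, 9% of members against 10.6% of all genes.

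NbL01g24330, with the larger decrease in WT above, stood at 398, 367 and 337 CPM in pent1 mock and at 356, 358 and 258 in pent1 ABA. Those groups overlapped, and all 6 libraries were below the WT ABA libraries. This gene entered the list through WT (ranks 97 and 179 in mock and ABA, against 240 and 285 in pent1). Its log2 difference of responses was 0.73 (SE 0.17, edgeR quasi-likelihood test, adjusted p = 0.0240). The adjusted p was 0.0518 to 0.0761 in 8 of the fits with 1 library left out.

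NbL19g15040 (rank 162) was the other. It stood at 622, 627 and 577 CPM in WT mock and at 676, 664 and 625 in WT ABA, which overlapped and were not called (log2 fold change 0.12, adjusted p = 0.220). In pent1 it rose from 362, 349.7 and 359 CPM to 557, 599 and 519.9 (log2 fold change 0.73, SE 0.13, edgeR quasi-likelihood test, adjusted p = 0.00225). Its pent1 mock libraries were below all others, and the log2 difference of responses was 0.61 (SE 0.14, adjusted p = 0.0203), with an adjusted p of 0.0514 to 0.0644 in 6 of the fits with 1 library left out.

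Differences between the genotypes reached larger sizes than changes with ABA, with 14 members at 2-fold or more under mock. Some of the largest belonged to genes that entered the list through 1 genotype, such as NbL05g08850 (rank 30 in WT mock, 277 in pent1 mock). Choosing by mean CPM lets such genes in, so these sizes only describe the list. Under mock, 25 members were higher in pent1 and 53 lower, and 122 were not called. That was 12.5% and 26.5% of members against 17.4% and 15.4% of the 34026 genes tested (edgeR quasi-likelihood). At least 2-fold, 6 members were higher and 8 lower, 3% and 4% of members against 4.26% and 3.04% of all genes. Of the 10 highest members, 3 were higher and 3 lower in pent1, and 3 and 1 without pent1 mock replicate 1.

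The median log2 difference of all members under mock was -0.16, against 0.02 for all genes, and -0.06 without pent1 mock replicate 1. Without that library 34 members were higher and 40 lower, 37% of members against 28.4% of all genes. Without the 3 libraries that lay apart they were 44 and 58, 51% against 32.9%. Library-size scaling gave 40 higher and 56 lower (19.4% and 12.3% of all genes), and upper-quartile factors 24 and 67 (15.2% and 18.2% of all genes). Each genotype had its own table of counts, so genotype and table cannot be told apart.

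Under ABA, 36 members were higher in pent1 and 23 lower, 18% and 11.5% against 16.7% and 14.6% of all genes tested (edgeR quasi-likelihood). At least 2-fold, 5 were higher and 4 lower, against 2.69% and 3.25% of all genes. The median log2 difference was 0.00, against 0.03 for all genes. Without the 3 libraries that lay apart, 44 were higher and 35 lower, 39.5% of members against 29.6% of all genes. The number lower ranged from 12 to 33 with 1 library left out, being 12 to 14 without any one WT ABA library or without pent1 ABA replicate 1 or 2. In the fits with 12 to 14, the share of all genes called lower was also smaller, at 10.5% to 12.2%. In the fit with 33, without pent1 mock replicate 1, it was 16.6%.

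The mock and ABA comparisons of genotype contrasted separate libraries but shared 1 fit and its estimate of the spread. Of the 25 members higher in pent1 under mock, 24 were also called higher under ABA. Of the 53 lower under mock, 20 were also lower under ABA and 33 were not called there, and no member had opposite calls. Without the 3 libraries that lay apart, 29 were higher in both, 31 lower in both and 1 had opposite calls. Of the 14 members with at least a 2-fold difference under mock, 12 were called in the same direction under ABA, 8 of them at 2-fold again. The matching overlap over all genes tested was not counted, so these numbers cannot be called particular to the members.

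**Figure D4:**
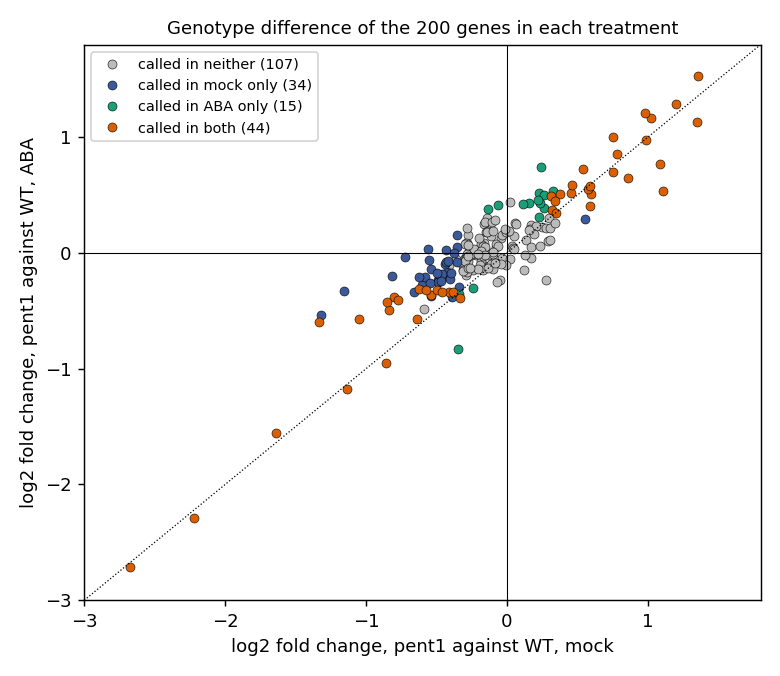
Log2 fold change of pent1 against WT under mock (horizontal axis) and under ABA (vertical axis) for the 200 members, coloured by where they were called, with the line of equal change dotted. The 44 members called in both lie in the quadrants of equal sign, with NbL05g08850 lowest at -2.67 and -2.71.

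The 24 members higher in pent1 under both treatments took 2.05%, 2.38% and 2.18% of counts in WT mock and 3.29%, 3.82% and 3.99% in pent1 mock. Under ABA they took 2.24%, 2.14% and 2.34% in WT and 3.47%, 3.41% and 3.93% in pent1. The 20 lower under both took 2.43% ± 0.0180 in WT and 1.38% ± 0.0446 in pent1 under mock, and 2.29% ± 0.0893 in WT and 1.41% ± 0.0592 in pent1 under ABA (SD, n = 3). The same libraries had chosen these genes, so the values only describe the amount of counts involved.

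The 33 members lower in pent1 under mock only took more counts than either set. Under mock they took 5.46% ± 0.0552 in WT and 3.97% ± 0.387 in pent1, and under ABA 5.06% ± 0.310 in WT and 4.41% ± 0.289 in pent1 (SD, n = 3). Their median log2 fold change with ABA was -0.10 in WT and 0.23 in pent1. Choosing genes lower under mock and not under ABA favours this sign on the same libraries, so it is a description, and 1 of the 33 was called for the difference of responses.

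NbL05g08850 (rank 56) had the largest genotype difference of any member. By group mean it ranked 30 in both WT groups and 277 and 325 in pent1 mock and ABA, so it entered the list through WT. It stood at 2005, 2139 and 2023 CPM in WT mock and 1892, 1979 and 2111 in WT ABA, and at 354, 329 and 317 in pent1 mock and 289, 318 and 290.1 in pent1 ABA. Each WT library was far above each pent1 library, and mock and ABA overlapped in each genotype. The log2 fold change was -2.67 under mock (SE 0.11, edgeR quasi-likelihood test, adjusted p = 7.51e-12) and -2.71 under ABA (SE 0.11, adjusted p = 1.15e-11).

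NbL15g20100 (rank 100) followed, at 1523, 1556 and 1452 CPM in WT mock and 356, 316 and 334 in pent1 mock. Under ABA it stood at 1250.4, 1289.5 and 1343 CPM in WT and at 274, 289 and 217 in pent1. The genotypes were far apart under both treatments, with log2 fold changes of -2.22 (SE 0.12, edgeR quasi-likelihood test, adjusted p = 2.04e-10) and -2.29 (SE 0.12, adjusted p = 1.53e-10). NbL15g20100 also entered the list through WT (ranks 40 and 47 under mock and ABA, against 274 and 387 in pent1).

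Of the members higher in pent1, NbL19g17240 (rank 31) stood at 896, 1264 and 957 CPM in WT mock and 2238, 3043 and 2917 in pent1 mock. Under ABA it stood at 1066, 987 and 1082 CPM in WT and 2798, 2819 and 3239 in pent1. No WT library reached a pent1 library, and the log2 fold changes were 1.36 (SE 0.16, edgeR quasi-likelihood test, adjusted p = 3.71e-06) and 1.53 (SE 0.16, adjusted p = 1.57e-06).

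NbL05g08250 (rank 192) was the next highest under mock, at 259, 244 and 291 CPM in WT and 637, 692 and 755 in pent1 (log2 fold change 1.35, SE 0.13, edgeR quasi-likelihood test, adjusted p = 2.90e-07). NbL19g24090 (rank 130) was the next highest under ABA, at 394, 384 and 429 CPM in WT and 941, 858 and 1081 in pent1 (log2 fold change 1.28, SE 0.13, adjusted p = 9.16e-07). In both, all pent1 libraries were above all WT libraries under the treatment named. Both entered the list through pent1. NbL05g08250 ranked 392 and 360 in WT mock and ABA, and NbL19g24090 ranked 243 and 237.

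**Figure D5:**
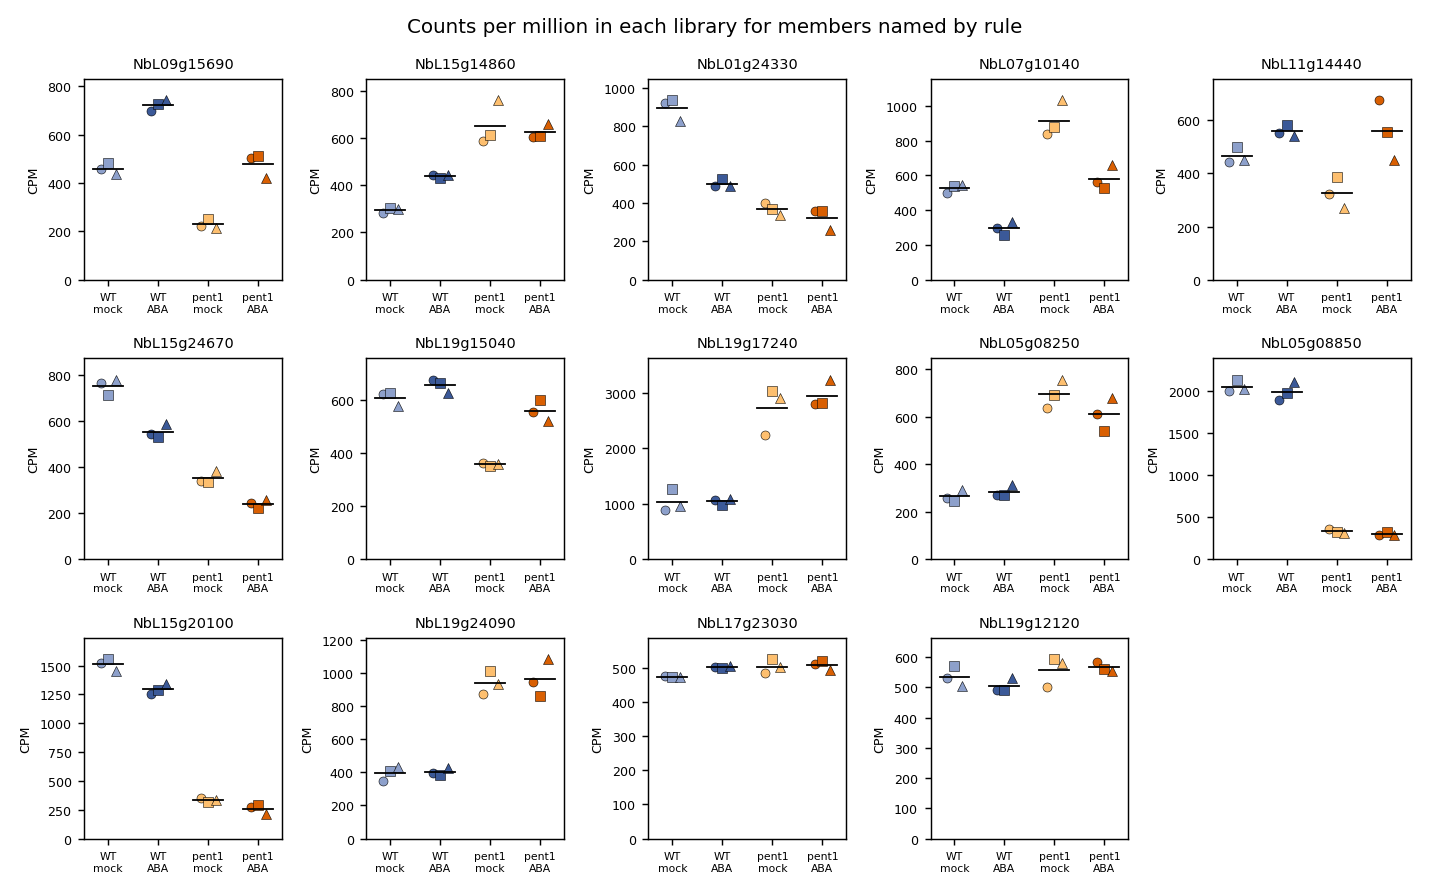
CPM in each library (symbols, by replicate number as circle, square and triangle for 1, 2 and 3) and group means (lines) for the 12 members with the largest called changes and the 2 steadiest members; each axis starts at 0. NbL05g08850 and NbL15g20100 show the gap between genotypes, NbL09g15690 the rise with ABA in both, and NbL17g23030 lies between 472 and 525 CPM.

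Among the front ranks, 2 further genes, singled out after their values were seen, stood nearer the front in pent1. NbL05g05670 was ranked 23 in WT mock and 4 in pent1 mock, at 2311, 2698 and 2482 CPM against 3909.5, 4610.4 and 4724 (log2 fold change 0.78, SE 0.14, edgeR quasi-likelihood test, adjusted p = 0.000247). NbL15g02500 moved from rank 20 to rank 3, at 2616, 3238 and 2839 CPM against 3627, 4419.7 and 5276 (log2 fold change 0.58, SE 0.15, adjusted p = 0.00741). Both were also higher in pent1 under ABA. In the other direction, NbL08g07240 ranked 4 in both WT groups and 19 in both pent1 groups.

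Counts moved between members are another measure of these shifts. Summing the absolute differences of group mean CPM over the members gave 1.99% of the library for ABA in WT and 2.05% for ABA in pent1. It gave 5.67% for pent1 against WT under mock and 4.48% under ABA. The same sum for 1 replicate against the mean of the other 2 of its group was 1.19% to 2.51% within the WT groups and 2.07% to 3.99% within the pent1 groups. A single library against a pair varies more than means of 3 libraries do, so these ranges are no test of the sums. Members held 11.8% and 13.8% of the sum over all genes for ABA in WT and pent1, and 25.03% and 22.5% for the genotype under mock and ABA.

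Many members were called in no comparison of groups. Of the 200, 93 were called in none of the 4 comparisons of groups (46.5%, against 39.4% of the 32536 genes tested in all 4) and 4 in all of them (2%, against 2.31%). Without the 3 libraries that lay apart, 56 members were called in none (28%, against 39.9% of all genes). The ratio of the highest to the lowest library was below 1.5 for 93 members, above 2 for 31 and above 4 for 4. The steadiest was NbL17g23030 (rank 180), at 476, 472 and 473 CPM in WT mock, 503, 499.7 and 504 in WT ABA, 484, 525 and 501 in pent1 mock and 509.9, 521 and 493 in pent1 ABA. The WT libraries did not overlap between mock and ABA but differed little, and the gene was not called. NbL19g12120 (rank 164) was next, between 490.5 and 593 CPM.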

How the data were processed

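Whole-number read counts per gene, deposited by the authors without normalization, were used for 12 libraries in 2 tables, 1 for each genotype, with the same 45796 gene IDs. A strand-specific mRNA kit was used for the libraries, per the labels' protocols, and FastQC, cutadapt, STAR and DESeq2 were used, per the submitters' processing notes, with no versions. Not given in the sources used here are the counter, the annotation and genome build, how multiply mapped reads were handled and whether strand was used. Tables were joined by gene ID, and columns were assigned by the sample descriptions.

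CPM are counts over the column total. Groups were compared with edgeR 4.0.16 in R 4.3.3 (quasi-likelihood F-test) with TMM factors, robust dispersion, the default filter (count minimum 10), Benjamini-Hochberg adjustment over all genes tested and a threshold of 0.05. ABA was tested on the 6 libraries of each genotype, and the other comparisons on all 12. All 200 members passed the filter. Standard errors are those implied by the F statistic. The tests were tried on simulated data. Alternatives were RLE and upper-quartile factors, library size alone, no filter, a filter of 1 CPM in 3 libraries, DESeq2 1.42.0, limma-voom (limma 3.58.1), a replicate block, all 12 libraries for ABA, each library left out, other choices of members and, added after seeing the data, 3 libraries left out together.

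Over genes with at least 20 counts, chi-square divided by its degrees of freedom was 2.03 to 16.5 for replicate pairs, above sampling noise, so each library is 1 replicate. Intervals are at 95%. Members and lists were chosen with earlier results of these data known. Genes are named by a rule: the 5 highest by mean CPM, the extremes by log2 fold change (2 at either end) among members called in each comparison without overlap of the groups (overlap was not asked for the difference of responses), the 2 with the smallest ratio of highest to lowest CPM, and those next to the boundary. Pathway lists were not used, as the IDs come without names.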

Additional observations from a re-analysis of the deposited data

Results flagged for a closer look

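For 2 members the ABA response differed between the genotypes by a test of the difference itself. The log2 difference (pent1 minus WT) was 0.73 for NbL01g24330, which fell with ABA in WT and was not called in pent1. It was 0.61 for NbL19g15040, which rose with ABA in pent1 and was not called in WT. Both calls were lost in several of the fits with 1 library left out.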

How the results depend on the processing

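Of 338 values of the 18 named changes under other settings, 316 kept their direction and call. Another 22 lost the call with 1 library left out, and none turned. The 22 lost calls were of NbL07g10140 and NbL15g24670 for ABA in pent1, and of both genes called for the difference. Named changes were picked as the largest called ones and, outside the difference of responses, without overlap of the groups. A turn was therefore unlikely from the start, and the absence of one is no support. Members called, higher and lower, were as follows. For ABA in WT, upper-quartile factors gave 37 lower and a fit of all 12 libraries 7 and 8, against 16 and 18. Over all genes these were 24.2% lower, and 13.7% and 10.7%, against 18.6% and 17.5%. For ABA in pent1, DESeq2 gave 12 higher and all 12 libraries 13, against 6 (over all genes 7.16% and 10.8%, against 7.24%). For the difference of responses, library size alone gave 1 lower and DESeq2 8 and 1, against 2 and 0. For pent1 under mock, library size alone gave 40 higher, against 25 (19.4% of all genes, against 17.4%).

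With the 3 libraries that lay apart left out, chosen after seeing the data, the counts were 17 and 62 (ABA in WT), 10 and 6 (ABA in pent1), 16 and 2 (difference), 44 and 58 (genotype, mock) and 44 and 35 (genotype, ABA). In that order, these were 39.5%, 8%, 9%, 51% and 39.5% of members, against 33.6%, 12.8%, 10.6%, 32.9% and 29.6% of all genes. With 1 library left out the counts ranged from 12 to 17 and 11 to 62, from 4 to 9 and 0 to 2, from 0 to 14 and 0 to 1, from 21 to 34 and 39 to 61, and from 25 to 36 and 12 to 33, in the same order. In those fits the share of all genes called moved too. It was 29.9% to 33.6%, 7.01% to 17.9%, 1.03% to 15.5%, 24.9% to 36.9% and 22.0% to 34.3%, again in that order. The mean share ranged from 24.9% to 25.3% in WT mock, 23.4% to 24.5% in WT ABA, 22.9% to 24.6% in pent1 mock and 23.6% to 25.01% in pent1 ABA. The cause of these shifts was not tested.

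Taking 100 genes gave 5 and 3, 1 and 0, 0 and 0, 10 and 27, and 13 and 9. Taking 400 gave 53 and 64, 18 and 5, 4 and 2, 53 and 110, and 69 and 66. These lists used the main fits, so the shares of all genes called are those given above for all libraries. A longer list holds more calls, but the percentage called also changed with rank. For ABA in WT, 17% of members and 41.5% of the 200 genes ranked just after them were called. Without WT ABA replicate 3 these were 39.5% and 47%. For pent1 against WT under mock they were 39% and 42.5%. The lists of 100 and 400 genes took 18.9% and 31.9% of counts in WT mock and 18.1% and 30.8% in WT ABA. In pent1 they took 17.5% and 29.9% in mock and 18.4% and 30.9% in ABA. Of 200 genes chosen on mock libraries 195 were members, and 197 of those chosen by median CPM.

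Same-numbered replicates correlated from -0.066 to 0.221 in their deviations, so the numbers were not taken as pairs. With the replicate block the difference of responses had 4 higher and 1 lower (2.5% of members against 5.13% of all genes). In that fit 33 of 34, 8 of 8, 2 of 2, 77 of 78 and 58 of 59 calls were kept. Counting error was small beside the spread between replicates, so 3 libraries a group, not depth, set the precision.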

Other observations

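Members were spread over the whole ID series. The 2 digits after "NbL" take 20 values in the tables, and each held at least 1 member, up to 19 for the value 16. Relative to the genes with at least 1 count, there were 2.16 to 7.47 members per 1000, lowest for the value 4 and highest for 16. The labels do not say what these digits stand for.

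Few members had neighbouring IDs. The 200 members contained 3 pairs of consecutive IDs and no longer run. In the pair NbL01g00760 and NbL01g00770, which together took 0.166% of counts, both members were lower in pent1 than in WT under mock (log2 fold changes -0.86 and -0.73, edgeR quasi-likelihood). With ABA in WT their log2 fold changes lay between -0.10 and 0.28, and 1 was called higher. In each of the other pairs 1 member was called lower in pent1 under mock, and none of these 4 genes was called for ABA in WT or pent1 by the same test.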
